A study of Rattus norvegicus with 12 samples.

Results

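The comparison described here sets aortic rings that met 2 inflammatory conditions together, a fibrin gel and tumor necrosis factor (TNF), against rings in a collagen gel that met neither. It was defined by sample title and holds 6 of the 12 arrays of the study. The 3 fibrin TNF arrays came from rings embedded in fibrin and given 10 ng/ml recombinant rat TNF-alpha. The 3 collagen control arrays came from rings embedded in collagen with no TNF. The remaining arrays, 3 collagen TNF and 3 fibrin control, carry 1 of the conditions each and are used to place the joint difference. All rings came from aortas of male Fisher 344 rats aged 1 to 2 months, were kept in serum-free EBM medium and were taken at day 2. Each sample pooled 4 to 6 ring cultures, so the spread between arrays is a spread between pools. Groups were taken from the titles, since the tissue label of the fibrin samples speaks of collagen gels. The titles call the replicates biological, but separate animals are not named, and each p-value rests on the spread among these arrays alone.

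An aortic ring is a short segment of vessel wall with its endothelium, smooth muscle and adventitia, in which resident macrophages and fibroblasts lie. Embedded in a gel, it sprouts new vessels from the cut edges, and this outgrowth is used as a culture model of angiogenesis. TNF binds receptors on most of these cells and frees the transcription factor NF-kB from its inhibitors, which induces chemokines, adhesion molecules, survival genes and the inhibitors themselves. Fibrin is the provisional matrix of a clot and is bound by leukocyte and vascular integrins, while type I collagen is a main matrix of the resting vessel wall. Type I interferons bind a receptor found on most cells and induce a large set of antiviral genes.

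Expression was read on a whole-transcript rat array as log2 values, for 14324 genes with 1 probe set each. The smooth muscle myosin Myh11 stood at 9.97 to 11.02 (log2) over all 12 arrays and the endothelial receptor Tie1 at 10.03 to 10.60, while Acta2 and Pecam1 were not analysed here. Of 14324 genes, 2864 (20.0%) passed limma at an adjusted p of 0.05 between fibrin TNF and collagen control, 1438 higher (10.0%) and 1426 lower (9.96%). With each array centred on its median, the split was 1858 higher and 1118 lower. For 4924 genes (34.4%) the 3 arrays of 1 group did not overlap the 3 of the other, so a lack of overlap was common. Differences of at least 1 on the log2 scale were more often higher (260 genes, 1.82%) than lower (169 genes, 1.18%), and 84 genes were higher by at least 2 (0.586%) against 23 lower (0.161%). On the first principal component, which held 52.9% of the variance, the fibrin TNF arrays scored 18.96 to 25.24, fibrin control 7.03 to 13.36, collagen TNF -6.03 to -3.35 and collagen control -29.34 to -24.96. The arrays of the comparison thus stood at the 2 ends of this axis.

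**Figure D1:**
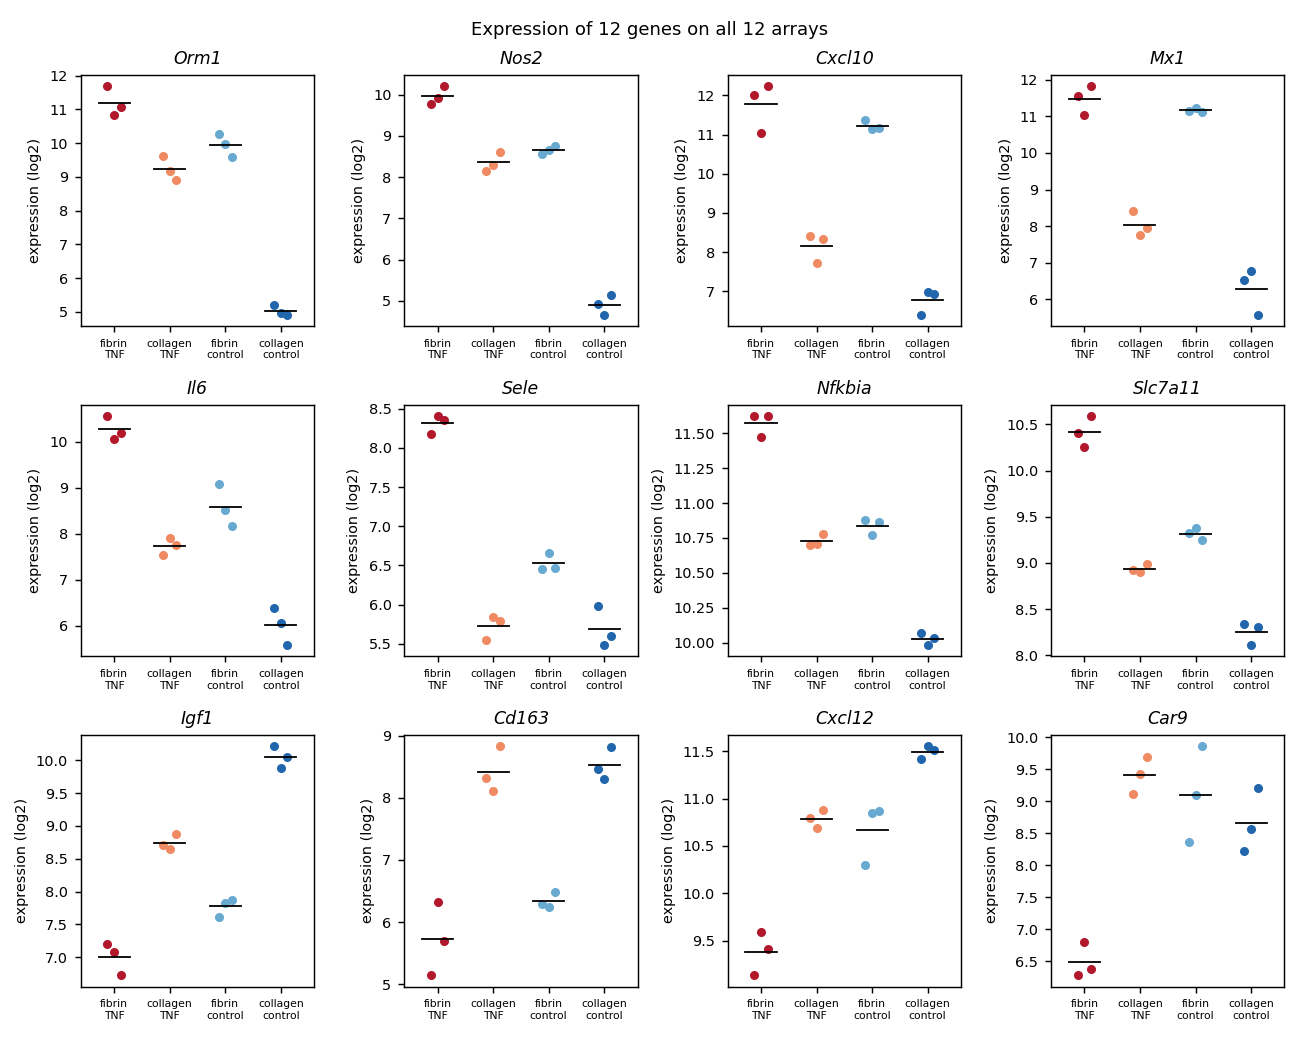
Expression (log2) of 12 genes on all 12 arrays, with fibrin TNF, collagen TNF, fibrin control and collagen control side by side; points are arrays and bars are group means. Orm1, Nos2, Cxcl10, Mx1, Il6, Sele, Nfkbia and Slc7a11 were higher on every fibrin TNF array than on every collagen control array, and Igf1, Cd163, Cxcl12 and Car9 were lower.

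The genes of largest increase encoded acute-phase plasma proteins, interferon-induced antiviral proteins, neutrophil and T cell chemokines, and the inducible nitric oxide synthase. Orm1, the plasma carrier protein orosomucoid, stood at 11.69, 10.83 and 11.06 (log2) on the fibrin TNF arrays, against 5.20, 4.96 and 4.92 on the collagen control arrays. No array of the pair of groups came near the other group, and the difference was 6.17 ± 0.23 (log2, SE, adjusted p = 3.94e-09). Nos2, which makes nitric oxide in inflamed tissue, stood at 9.78, 9.91 and 10.21 with fibrin and TNF, against 4.94, 4.67 and 5.13 in collagen controls. The difference was 5.05 ± 0.14 (adjusted p = 5.76e-10). In collagen controls 28.3% of all genes had a lower mean than Orm1 and 26.8% a lower mean than Nos2, and background intensities were not used here, so no fold is given for these genes and the sizes and ranks of differences from such low levels are uncertain. The other 14 of the 16 largest increases were Cxcl11 (5.45), Mx1 (5.19), Hpx (5.02), Cxcl10 (5.00), Rsad2 (4.81), Ces1f (4.77), Ifit3 (4.55), Isg15 (4.43), Usp18 (4.41), Cxcl6 (4.38), Il6 (4.26), Mx2 (4.20), Irf7 (4.06) and Oasl (4.03), all as log2 differences. Genes with near-identical copies in the rat genome, among them Mx1 and Mx2, the Ces1, Akr1c and Scgb1b genes and Ly6c, may cross-hybridise and are less certain as single genes.

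The 16 largest decreases included genes of steroid and drug metabolism, resident macrophage genes and the growth factor gene Igf1. Akr1c14, a hydroxysteroid dehydrogenase, stood at 6.63, 7.26 and 6.87 on the fibrin TNF arrays, against 10.23, 10.65 and 10.52 on the collagen control arrays. It was 11.7-fold lower (-3.55 ± 0.15, adjusted p = 1.15e-08). Igf1, the insulin-like growth factor, stood at 7.21, 7.08 and 6.73 with fibrin and TNF, against 10.21, 9.88 and 10.04 in collagen controls, with no overlap. It was 8.23-fold lower (-3.04 ± 0.13, adjusted p = 1.15e-08). The rest were Sult1a1 (-3.49), F13a1 (-2.93), Cd163 (-2.81), Hpgds (-2.52), Pnoc (-2.49), Aox3 (-2.46), Tmem178a (-2.31), Pdk4 (-2.26), Rgs18 (-2.23), Mfap5 (-2.20), Akr1c15 (-2.18), Lrrc17 (-2.18), Car9 (-2.18) and Selenop (-2.13).

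**Figure D2:**
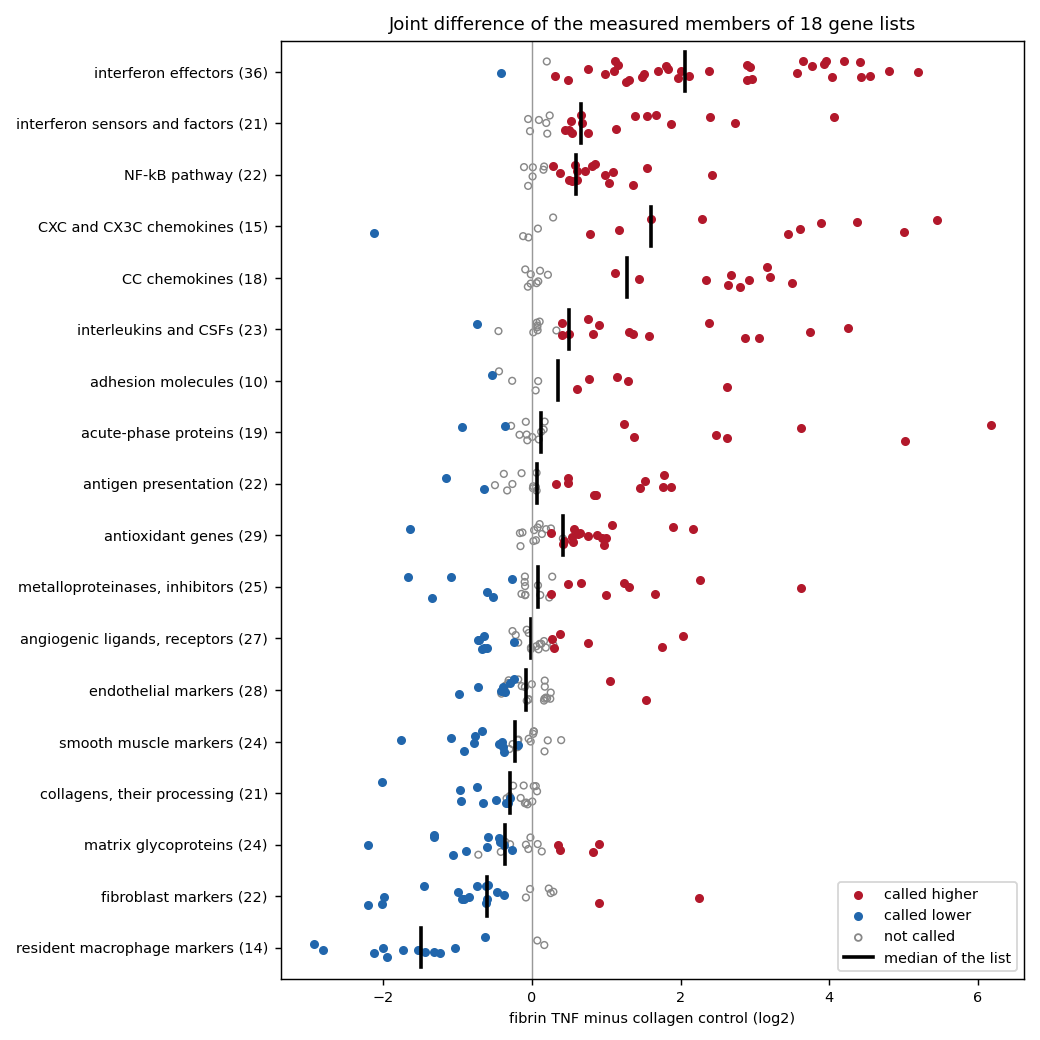
Difference between fibrin TNF and collagen control (log2, horizontal axis) for the measured members of 18 gene lists, with the number of members in brackets. Filled points passed limma at an adjusted p of 0.05 (red higher, blue lower), open points did not, and the black bar is the list's median; interferon effectors had a median of 2.06 and resident macrophage markers of -1.49.

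Interferon-induced antiviral genes had the largest share of called members among the 46 lists described here. Of 36 measured effectors, 34 rose and 1 fell, beside 10.0% and 9.96% of all genes, and their median difference was 2.06 (log2) beside 0.0016 over all genes. Every count of list members that rose or fell jointly, here and below, is to be read beside these shares. Mx1, a GTPase that blocks influenza-type viruses, stood at 11.55, 11.04 and 11.83 on the fibrin TNF arrays, against 6.51, 6.77 and 5.58 on the collagen control arrays. Isg15, a ubiquitin-like protein attached to other proteins during the response, stood at 11.90, 10.97 and 11.87 with fibrin and TNF, against 7.29, 7.67 and 6.50 in collagen controls. Fibrin TNF replicate 2 was the lowest of its group for both genes, and no array overlapped between the groups. The difference was 5.19 ± 0.27 for Mx1 (adjusted p = 5.12e-08) and 4.43 ± 0.29 for Isg15 (adjusted p = 2.77e-07). Herc6, which attaches Isg15 in mouse, rose by 3.93 and the guanylate-binding protein Gbp5 by 3.57. Epsti1 did not pass (0.20, adjusted p = 0.402), and Ifitm1 fell (-0.42), a call lost without fibrin TNF replicate 1 or collagen control replicate 1 or 3 (adjusted p = 0.0529 to 0.0833).

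Most of the factors that sense nucleic acids and drive these genes rose. Of 21 measured sensors, interferon regulatory factors and receptor components, 15 rose and 0 fell (median 0.66). Irf7, the factor that amplifies interferon production, stood at 11.46, 10.96 and 11.32 on the fibrin TNF arrays, against 7.28, 7.72 and 6.54 on the collagen control arrays (4.06 ± 0.24, adjusted p = 1.12e-07). The RNA sensors Dhx58 and Rig1 rose by 2.73 and 2.39, and the subunits Stat2 and Irf9 of the interferon-activated complex by 1.55 and 1.38. Irf3, the latent factor that starts the response and is regulated by phosphorylation, did not pass (0.19, adjusted p = 0.275).

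The antiviral genes were next set against the single conditions. None of the 36 effectors was called higher in fibrin TNF than in fibrin control, and 33 were called higher in fibrin TNF than in collagen TNF, beside 1.65% and 4.55% of all genes. At an unadjusted p below 0.05 in limma, 3 effectors were higher in fibrin TNF than in fibrin control and 1 lower. In collagen the effectors were higher with TNF, with a median difference from collagen control of 0.53 (log2) beside 0.0027 over all genes. Mx1 stood at 11.16, 11.22 and 11.13 on the fibrin control arrays and at 8.41, 7.76 and 7.94 on the collagen TNF arrays, so the fibrin TNF arrays overlapped fibrin control and lay above collagen TNF. Adding TNF to fibrin moved Mx1 by 0.30 (adjusted p = 0.665), and exchanging collagen for fibrin under TNF moved it by 3.43 (adjusted p = 7.2e-06). Averaged over an array as the median deviation of the effectors from each gene's 12-array mean, fibrin TNF arrays stood at 1.16, 0.60 and 1.20 (log2), collagen TNF at -0.56, -0.83 and -0.70, fibrin control at 0.78, 0.80 and 0.92 and collagen control at -1.11, -1.06 and -1.20.

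Promoter sequences of the leading inflammatory genes were searched for 3 short motifs, and 4 of them are shown because they hold matches. Windows reach from 250 bases before to 50 bases after the annotated start (RefSeq, GRCr8) and were found for 11823 measured genes. The motifs, read on both strands, were the core of the interferon-stimulated response element (GAAA, any 2 bases, GAAA), a kappaB site (GGG, any 2 bases, TTTCC) and a C/EBP site (TTGC, any 2 bases, AA). By the rule for showing promoters, the genes of largest increase among interferon effectors, CXC chemokines, adhesion molecules and acute-phase genes were Mx1, Cxcl11, Sele and Orm1, and the windows of Mx1, Cxcl11 and Sele held none of the 3. Rsad2 (an antiviral radical enzyme, chr6:48788071-48788370, minus strand) and Ifit3 (an inhibitor of viral RNA, chr1:241527076-241527375, plus strand), as the interferon effectors of largest increase with the response element core, and Cxcl6 (chr14:17596368-17596667, minus strand), as the CXC chemokine of largest increase with a kappaB match, were chosen after matches were seen. Orm1 lies at chr5:81788259-81788558 on the plus strand. Capitals mark the matches.
Rsad2: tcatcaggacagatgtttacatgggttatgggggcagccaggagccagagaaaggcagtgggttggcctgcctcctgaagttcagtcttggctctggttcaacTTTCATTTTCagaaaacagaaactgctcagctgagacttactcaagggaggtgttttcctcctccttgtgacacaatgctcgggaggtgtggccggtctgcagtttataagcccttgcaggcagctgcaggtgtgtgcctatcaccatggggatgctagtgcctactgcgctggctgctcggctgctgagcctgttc
Ifit3: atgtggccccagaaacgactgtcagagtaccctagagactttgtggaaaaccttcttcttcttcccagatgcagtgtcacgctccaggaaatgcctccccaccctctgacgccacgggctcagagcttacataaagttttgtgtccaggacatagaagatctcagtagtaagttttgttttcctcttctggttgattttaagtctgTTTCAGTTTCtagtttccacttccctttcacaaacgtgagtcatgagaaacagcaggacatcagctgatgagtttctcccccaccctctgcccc
Cxcl6: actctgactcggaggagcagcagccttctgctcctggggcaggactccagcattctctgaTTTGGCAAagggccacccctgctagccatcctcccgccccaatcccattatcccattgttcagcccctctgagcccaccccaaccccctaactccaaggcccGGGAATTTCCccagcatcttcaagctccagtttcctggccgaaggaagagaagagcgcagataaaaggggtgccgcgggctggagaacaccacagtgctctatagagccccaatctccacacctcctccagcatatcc
Orm1: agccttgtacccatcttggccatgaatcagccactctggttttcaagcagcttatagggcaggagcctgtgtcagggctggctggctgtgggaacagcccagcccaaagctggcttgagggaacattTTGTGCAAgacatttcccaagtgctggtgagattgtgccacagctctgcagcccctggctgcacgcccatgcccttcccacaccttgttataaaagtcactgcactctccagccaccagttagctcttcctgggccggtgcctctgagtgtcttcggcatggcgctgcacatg
In Rsad2 the match begins 147 bases before the start and in Ifit3 44 bases before it. In Cxcl6 the kappaB match begins 88 bases before the start and a C/EBP match 190 bases before it, and in Orm1 the C/EBP match begins 123 bases before it. The response element core was found in 3.42% of the 11823 windows, in 7.54% of the 1180 windows of genes called higher and in 28.8% of the 59 windows of genes higher by at least 2, against 2.18% of the 1147 windows of genes called lower and 10.5% (2) of the 19 windows of genes lower by at least 2. The kappaB site was found in 1.71% of all windows, in 3.39% of those of genes called higher and in 1.31% of those called lower. It was found in 13.6% of those of genes higher by at least 2 and in 5.26% (1 of 19) of those of genes lower by at least 2. The C/EBP site was found in 10.0% of all windows, in 11.5% of those of genes called higher and in 9.94% of those called lower. It was found in 27.1% of those of genes higher by at least 2 and in 21.1% (4 of 19) of those of genes lower by at least 2. Of the 27 interferon effectors with a window 19 held the response element core, and of the 14 acute-phase genes 8 held the C/EBP site. A match describes letters in these windows, and binding was not measured.

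Most genes of the NF-kB pathway, which TNF receptors engage, rose. Of 22 measured members 16 rose and 0 fell (median 0.59), beside 10.0% and 9.96% of all genes. Nfkbia, an inhibitor made in response to NF-kB, stood at 11.62, 11.48 and 11.62 on the fibrin TNF arrays, at 10.70, 10.70 and 10.78 on collagen TNF, at 10.88, 10.77 and 10.86 on fibrin control and at 10.07, 9.98 and 10.03 on collagen control. Every fibrin TNF array lay above all other arrays, and every collagen control array below them. The joint difference was 1.55 ± 0.07 (adjusted p = 1.15e-08), the step from adding TNF to fibrin was 0.74 (adjusted p = 0.000104) and the step from exchanging the matrix under TNF was 0.85 (adjusted p = 7.15e-06). Birc3, an inhibitor of cell death, rose by 2.43, the A20-binding inhibitor Tnip1 by 1.36 and the NF-kB subunit precursor Nfkb2 by 1.08. Within this list 8 genes were called higher in fibrin TNF than in fibrin control and 11 higher than in collagen TNF, beside 1.65% and 4.55% of all genes. The kinase subunit Ikbkg did not pass (0.15, adjusted p = 0.163).

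Receptors and ligands of the TNF family moved in both directions. Of 19 measured, 7 rose and 3 fell (median 0.08). Tnf itself stood at 6.84, 6.97 and 6.66 on the fibrin TNF arrays, against 6.17, 6.52 and 6.75 on the collagen control arrays, and the groups overlapped (0.34 ± 0.16, adjusted p = 0.161). The costimulatory receptor Tnfrsf9 rose by 1.91, the TNF receptor Tnfrsf1b by 1.20 and the death receptor Fas by 0.88. Tnfrsf11b, the decoy receptor osteoprotegerin, fell (-1.24 ± 0.10, adjusted p = 1.91e-06).

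Most measured chemokines rose, among them attractants of T cells, neutrophils and monocytes, and the homing chemokine Cxcl12 fell. Of 15 measured CXC and CX3C chemokines 10 rose and 1 fell (median 1.60), and of 18 CC chemokines 10 rose and 0 fell (median 1.28). Cxcl10, an interferon-induced attractant of T cells, stood at 12.02, 11.05 and 12.24 on the fibrin TNF arrays, at 8.40, 7.73 and 8.35 on collagen TNF, at 11.38, 11.14 and 11.18 on fibrin control and at 6.40, 6.97 and 6.94 on collagen control. It was 32.0-fold higher in fibrin TNF than in collagen control (5.00 ± 0.27, adjusted p = 6.31e-08), and the fibrin TNF and fibrin control arrays overlapped. The neutrophil attractants Cxcl1, Cxcl2 and Cxcl6 rose by 3.89, 3.60 and 4.38. Cx3cl1, the membrane-bound fractalkine, did not pass (0.28, adjusted p = 0.0606).

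Cxcl12, which holds and attracts cells bearing Cxcr4, stood at 9.13, 9.59 and 9.41 on the fibrin TNF arrays, at 10.79, 10.69 and 10.88 on collagen TNF, at 10.30, 10.85 and 10.87 on fibrin control and at 11.42, 11.55 and 11.52 on collagen control. It was lowest with both conditions together and 4.35-fold lower than in collagen controls (-2.12 ± 0.15, adjusted p = 4.5e-07). Among CC chemokines, the monocyte attractants Ccl2 and Ccl7 rose by 2.35 and 3.49, and Ccl3 by 3.20. Ccl5, an attractant of T cells, stood at 10.03, 9.02 and 9.58 with fibrin and TNF, against 6.67, 6.32 and 6.15 in collagen controls (3.16 ± 0.20, adjusted p = 2.39e-07). Ccl5 also exceeded both single conditions, by 1.63 over fibrin control (adjusted p = 0.000878) and by 2.57 over collagen TNF (adjusted p = 7.15e-06). Ccl9 and Ccl19 rose by 2.79 and 2.68 in fibrin TNF relative to collagen control, with group means of 8.08 and 9.22 in fibrin TNF and of 8.80 and 9.42 in collagen TNF.

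Cytokines of the interleukin and colony-stimulating families mostly rose. Of 23 measured 14 rose and 1 fell (median 0.50). Il6, the main inducer of the acute-phase response, stood at 10.56, 10.07 and 10.19 on the fibrin TNF arrays, at 7.53, 7.92 and 7.76 on collagen TNF, at 9.08, 8.52 and 8.17 on fibrin control and at 6.39, 6.07 and 5.59 on collagen control. The 4 groups did not overlap, with the fibrin TNF arrays highest and the collagen control arrays lowest, and the joint difference was 4.26 ± 0.23, or 19.1-fold (adjusted p = 6.48e-08). Il1a and Il1b, the pyrogenic interleukins, rose by 3.74 and 2.87, the granulocyte factor Csf3 by 3.05 and Lif by 2.38. Il16, a chemoattractant of Cd4-bearing cells, fell (-0.74).

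Il33, an alarm signal held in the nucleus, stood at 8.21, 8.49 and 7.91 on the fibrin TNF arrays, against 7.23, 6.56 and 6.73 on collagen control, and averaged 7.05 ± 0.09 on collagen TNF and 6.84 ± 0.16 on fibrin control (SD, n = 3). The fibrin TNF arrays lay above all others, while the arrays of the other 3 groups overlapped. The joint difference was 1.36 ± 0.17 (adjusted p = 7.65e-05). Its receptor Il1rl1 fell (-1.01 ± 0.20, adjusted p = 0.00267). Of 22 measured receptors and binding proteins 6 rose and 3 fell (median 0.08). The decoy Il18bp rose by 2.17 and the receptor chains Il7r and Il2rg by 2.09 and 1.54, whereas Csf1r, which macrophages need for survival, fell (-1.03).

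Several adhesion molecules that inflamed endothelium shows to leukocytes rose. Of 10 measured 5 rose, 1 fell and 4 did not pass (median 0.34). Sele, the endothelial selectin on which leukocytes roll, stood at 8.18, 8.41 and 8.35 on the fibrin TNF arrays, at 5.54, 5.84 and 5.79 on collagen TNF, at 6.46, 6.66 and 6.47 on fibrin control and at 5.98, 5.49 and 5.60 on collagen control. Collagen TNF and collagen control arrays overlapped, and the fibrin TNF arrays lay above all others. The joint difference was 2.63 ± 0.13 (adjusted p = 2.21e-08), with 1.79 over fibrin control (adjusted p = 1.62e-05) and 2.59 over collagen TNF (adjusted p = 7.62e-07). Vcam1 and Icam1, ligands of leukocyte integrins, rose by 1.29 ± 0.07 and 1.14 ± 0.08 (adjusted p = 1.04e-07 and 6.56e-07). Icam2 did not pass (-0.27, adjusted p = 0.239), and Alcam fell (-0.54).

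Acute-phase genes included the largest single increase, although most of the list was not called. Of 19 measured 7 rose and 2 fell (median 0.12). Hpx, the heme carrier hemopexin, stood at 11.50, 11.59 and 10.20 on the fibrin TNF arrays, at 11.56, 11.28 and 10.12 on collagen TNF, at 11.90, 11.39 and 9.66 on fibrin control and at 6.48, 6.28 and 5.45 on collagen control. Replicate 3 was the lowest of its group in each of the 4 groups, and the fibrin TNF arrays overlapped those of both single conditions. The joint difference was 5.02 ± 0.56 (adjusted p = 2.86e-05), against 0.11 over fibrin control (adjusted p = 0.957) and 0.11 over collagen TNF (adjusted p = 0.943). Slpi, a secreted inhibitor of neutrophil proteases, stood at 9.94, 10.51 and 9.70 with fibrin and TNF, against 6.50, 6.31 and 6.50 in collagen controls (3.61 ± 0.16, adjusted p = 1.5e-08). With TNF in collagen alone Slpi was higher than in collagen control by 4.29, and adding TNF to fibrin moved Slpi by 0.22. Lcn2, an iron-scavenging lipocalin, rose by 2.62, the long pentraxin Ptx3 by 2.48 and the iron hormone Hamp by 1.37. Itih3, a chain of a hyaluronan-binding inhibitor, fell (-0.94).

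Complement genes moved in both directions. Of 15 measured 6 rose and 6 fell (median -0.20). The central component C3 rose by 1.47, the terminal component C6 by 1.25, the decay-accelerating factor Cd55 by 1.26 and the C3a receptor C3ar1 by 1.08. With TNF in collagen alone C3 was higher than in collagen control by 1.73, and adding TNF to fibrin moved C3 by -0.59. The 3 chains of C1q, made by macrophages, fell (-0.72 for C1qa, -1.42 for C1qb and -1.44 for C1qc).

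The inducible enzymes of nitric oxide and prostaglandin E2 synthesis, Nos2, Ptges and Ptgs2, rose, while the lists they belong to moved in both directions. Of 13 measured genes of nitric oxide and arginine metabolism 5 rose and 2 fell (median 0.08). Beside Nos2, these were Ass1, which recycles citrulline to arginine (2.07), Gch1, which makes the cofactor of the synthase (1.65), the arginine carrier Slc7a2 (0.89) and Odc1 (0.42). The endothelial synthase Nos3 did not pass (-0.10, adjusted p = 0.626), and Ddah2, which removes an inhibitor of the synthases, fell (-0.95). Of 17 measured genes of eicosanoid synthesis 4 rose and 4 fell (median -0.04). Ptges, the inducible prostaglandin E synthase, stood at 10.17, 10.14 and 10.30 with fibrin and TNF, against 7.30, 7.56 and 7.81 in collagen controls (2.65 ± 0.13, adjusted p = 2.46e-08). The secreted phospholipase Pla2g2a rose by 3.03 and the cyclooxygenase Ptgs2 by 1.15. Genes for other eicosanoids fell, among them the prostaglandin D synthase Hpgds (-2.52) and the leukotriene genes Alox5ap (-1.71) and Alox5 (-0.94).

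Several matrix proteases rose, and inhibitors moved in both directions. Of 25 measured metalloproteinases, Adamts proteases and inhibitors 9 rose and 6 fell (median 0.08). Mmp3, stromelysin, stood at 11.99, 11.96 and 11.52 on the fibrin TNF arrays, against 8.37, 8.27 and 7.97 on the collagen control arrays (3.62 ± 0.20, adjusted p = 9.27e-08). Mmp9, a gelatinase, rose by 2.27, the aggrecanase Adamts4 by 1.66 and the inhibitor Timp1 by 1.23. Timp3, the inhibitor bound to matrix, stood at 9.93, 10.05 and 9.91 with fibrin and TNF, against 11.49, 11.61 and 11.79 in collagen controls (-1.67 ± 0.15, adjusted p = 3.48e-06), and Timp4 and Mmp11 fell too (-1.34 and -1.09). The membrane collagenase Mmp14 did not pass (0.11, adjusted p = 0.263).

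Of 21 measured genes of clotting and fibrinolysis 6 rose and 5 fell (median 0.07). The protease inhibitor Tfpi2 rose by 2.86, clotting factor F10 by 1.80, the anticoagulant receptor Thbd by 1.53 and the plasminogen activator Plat by 0.60 (adjusted p = 0.00135). F13a1, the transglutaminase subunit that crosslinks fibrin and is also a macrophage gene, stood at 5.63, 5.94 and 6.13 on the fibrin TNF arrays, against 9.04, 8.59 and 8.85 on the collagen control arrays (-2.93 ± 0.17, adjusted p = 9.89e-08). F5 fell as well (-1.29), and tissue factor, F3, fell by 0.52 on the log2 scale.

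Several genes of peptide loading onto class I molecules rose, and 2 class II accessory genes fell. Of 22 measured genes of antigen presentation 10 rose and 2 fell (median 0.06). The immunoproteasome subunits Psmb8, Psmb9 and Psmb10 rose by 1.87, 1.77 and 1.52, the peptide transporter Tap1 by 1.78 and its partner Tapbp by 1.46. RT1-DMa and RT1-DMb, which load class II molecules, fell (-0.64 and -1.15).

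More antioxidant genes rose than fell, and detoxifying enzymes moved in both directions. Of 29 measured antioxidant genes 16 rose, 1 fell and 12 did not pass (median 0.42). Slc7a11, the cystine carrier that feeds glutathione synthesis, stood at 10.40, 10.26 and 10.59 on the fibrin TNF arrays, at 8.92, 8.90 and 8.99 on collagen TNF, at 9.32, 9.37 and 9.25 on fibrin control and at 8.34, 8.11 and 8.30 on collagen control. No fibrin TNF array overlapped another group, and the joint difference was 2.16 ± 0.09 (adjusted p = 1.15e-08). The quinone reductase Nqo1 rose by 1.90, the thioredoxin reductase Txnrd1 by 0.87 and the mitochondrial dismutase Sod2 by 0.96, and the plasma glutathione peroxidase Gpx3 fell (-1.65). Of 12 measured metallothioneins and zinc carriers 6 rose and 0 fell (median 0.25), with the metallothionein Mt1 at 1.00 and the zinc importer Slc39a14 at 0.72.

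Of 21 measured genes of steroid and xenobiotic metabolism 5 rose and 9 fell (median -0.37). The sulfotransferase Sult1a1 stood at 5.22, 5.58 and 5.57 with fibrin and TNF, against 8.53, 9.22 and 9.09 in collagen controls, and averaged 7.15 ± 0.17 on collagen TNF and 7.23 ± 0.30 on fibrin control (SD, n = 3). The arrays with both conditions lay below all others, and the collagen control arrays above them (-3.49 ± 0.19, adjusted p = 5.34e-08). Cyp1b1, which hydroxylates estrogens, rose by 1.87, the oxysterol hydroxylase Cyp7b1 by 1.90 and the aldose reductase relative Akr1b8 by 1.23.

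Genes of hypoxia and of cellular stress gave no common direction in the joint comparison. Of 36 measured hypoxia and glycolysis genes 7 rose and 7 fell (median -0.04). Relative to collagen TNF 1 was called higher and 10 lower in fibrin TNF, beside 4.55% and 3.64% of all genes. Relative to fibrin control 1 was called higher and 5 lower, beside 1.65% and 1.47%. In collagen TNF 11 were called higher than in collagen control and 1 lower, and in fibrin control 9 higher and 1 lower. Car9, the carbonic anhydrase that hypoxia induces, stood at 6.28, 6.80 and 6.38 on the fibrin TNF arrays, at 9.11, 9.43 and 9.69 on collagen TNF, at 8.36, 9.09 and 9.86 on fibrin control and at 8.23, 8.56 and 9.21 on collagen control. The fibrin TNF arrays lay below all others, while those of the other groups overlapped (-2.18 ± 0.33, adjusted p = 0.000363). Adm, a vasodilating peptide, rose by 1.52, and Hif1a, the hypoxia factor itself, by 0.76. Of 21 measured genes of the integrated stress response 7 rose and 3 fell (median 0.18; 6 fell with quantile normalization), with Ddit3 at 0.71, Atf3 at 0.62 and Psat1 at -0.44.

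Most resident macrophage markers fell. Of 14 measured 0 rose and 12 fell, and their median difference was -1.49 beside 0.0016 over all genes. In whole cultures, fewer cells of a type and less RNA of its genes per cell cannot be told apart. Cd163, the scavenger receptor for hemoglobin, stood at 5.15, 6.32 and 5.70 on the fibrin TNF arrays, at 8.31, 8.11 and 8.83 on collagen TNF, at 6.29, 6.25 and 6.48 on fibrin control and at 8.46, 8.30 and 8.82 on collagen control. The collagen TNF and collagen control arrays overlapped, as did fibrin TNF and fibrin control, and the joint difference was -2.81 ± 0.25 (adjusted p = 4.48e-06). Lyve1, the hyaluronan receptor of vessel-wall macrophages, fell by 1.73 on the log2 scale, the lectin Clec10a by 1.95, the folate receptor Folr2 by 1.53, the selenium carrier Selenop by 2.13 and the factor Maf by 1.44. Marco and Cd209a did not pass (0.07 and 0.17, adjusted p = 0.63 and 0.363). Relative to collagen TNF 12 of the 14 were called lower in fibrin TNF (3.64% of all genes were), and relative to fibrin control 4 were (1.47% of all genes).

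Genes shared by many myeloid cells behaved less uniformly. Of 20 measured 1 rose and 6 fell (median -0.15), and with each array centred on its median 4 rose and 6 fell. Cd68, a lysosomal macrophage protein, stood at 10.13, 9.96 and 10.06 on the fibrin TNF arrays, against 9.74, 9.90 and 9.83 on the collagen control arrays. The groups did not overlap, but the difference did not pass (0.23 ± 0.09, adjusted p = 0.0851). Laptm5, Lcp1 and Tyrobp fell (-1.53, -0.94 and -0.76). Cd4, which rat macrophages carry as well as T cells, fell (-1.43).

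Few markers of other leukocytes were called, beside 10.0% of all genes higher and 9.96% lower, and most stood at low levels. In fibrin TNF 10 of 13 neutrophil, 12 of 17 T, NK and B cell and 8 of 9 mast cell genes averaged below 5 (log2). A lack of calls among such genes does not show that these cells were unchanged. Of 13 measured neutrophil genes 1 rose and 0 fell (median 0.04), and S100a8 stood at 2.47, 3.02 and 2.51 on the fibrin TNF arrays, against 3.04, 2.53 and 2.68 on the collagen control arrays, with overlapping groups (-0.09, adjusted p = 0.757). Of 17 T, NK and B cell genes 1 rose and 1 fell (median 0.01), and of 9 mast cell genes 0 rose and 0 fell (median -0.07), with 0 higher and 0 lower at an unadjusted p below 0.05 in limma. Of 18 adipocyte genes 0 rose and 8 fell (median -0.30), including the fatty acid carrier Cd36 (-1.24), also counted among the macrophage markers. Of 13 Schwann cell genes 0 rose and 3 fell (median -0.02), with Ncam1 at -1.05.

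**Figure D3:**
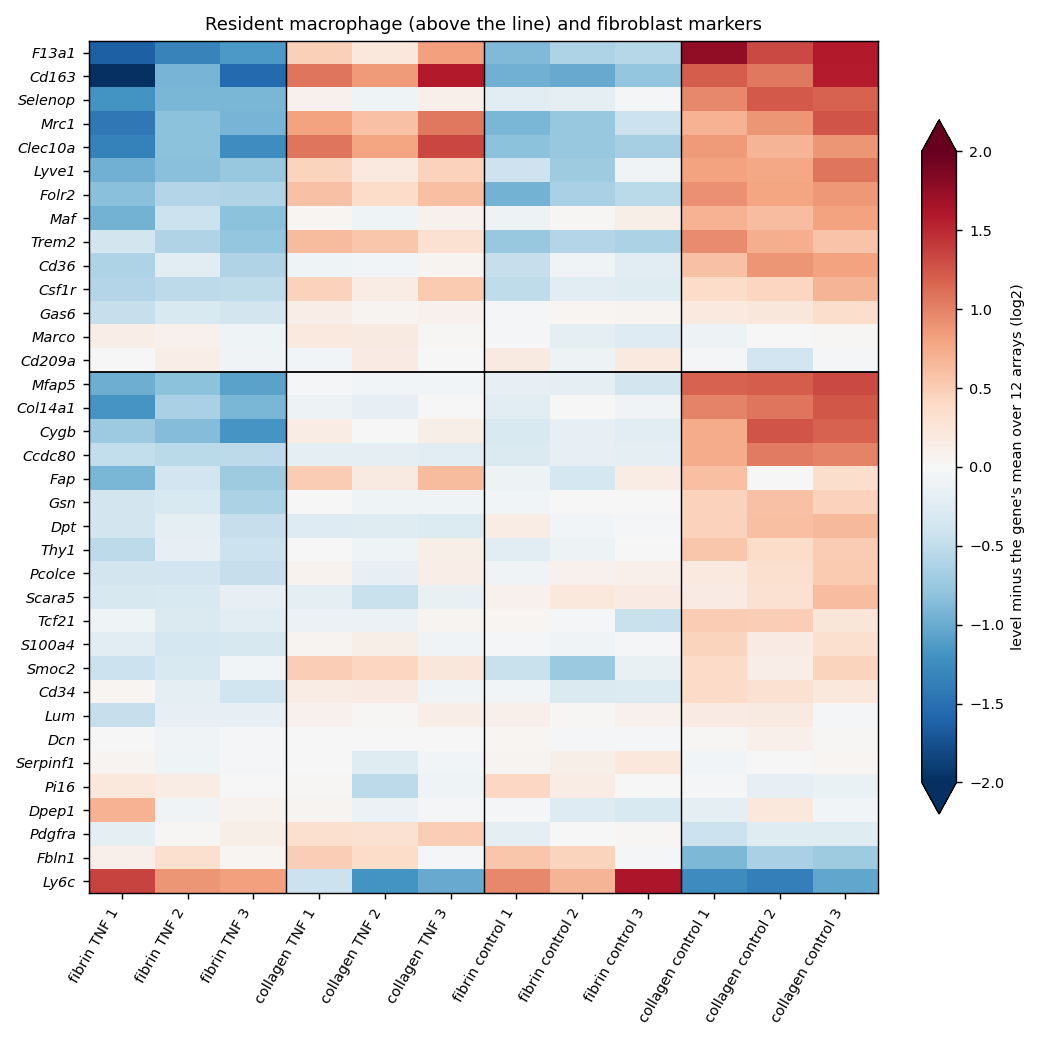
Level minus the gene's mean over the 12 arrays (log2, colour) for 14 resident macrophage markers above the line and 22 fibroblast markers below it, in columns by group and replicate from fibrin TNF at the left to collagen control at the right. By group mean, 10 and 13 of them were lowest in fibrin TNF, and 11 and 14 were highest in collagen control.

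Most fibroblast markers fell. Of 22 measured 2 rose and 15 fell (median -0.61). Mfap5, a protein of elastic microfibrils, stood at 6.83, 6.99 and 6.75 on the fibrin TNF arrays, at 7.79, 7.75 and 7.75 on collagen TNF, at 7.64, 7.64 and 7.44 on fibrin control and at 8.99, 9.03 and 9.14 on collagen control. The fibrin TNF arrays lay below all others (-2.20 ± 0.08, adjusted p = 3.94e-09). Col14a1, a collagen that binds fibrils, fell by 2.02 on the log2 scale, the oxygen-binding Cygb by 1.99 and Ccdc80 by 1.45. Ly6c and Fbln1 rose (2.24 and 0.90).

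Contractile genes of smooth muscle fell or did not pass. Of 24 measured 0 rose and 11 fell (median -0.23). Tagln, an actin-binding protein, stood at 7.90, 8.11 and 7.55 with fibrin and TNF, against 8.85, 9.15 and 8.83 in collagen controls (-1.09 ± 0.16, adjusted p = 0.000319). Myh11 stood at 9.97, 10.25 and 10.12 with fibrin and TNF, against 10.62, 11.02 and 10.73 in collagen controls (-0.68 ± 0.12, adjusted p = 0.00183). Neither gene's groups overlapped, as was so for 34.4% of all genes, and Mustn1 fell further (-1.76). Of 12 measured pericyte genes 2 rose and 4 fell (median -0.13), with the receptor Pdgfrb at -0.72 and Notch3 at -0.67.

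**Figure D4:**
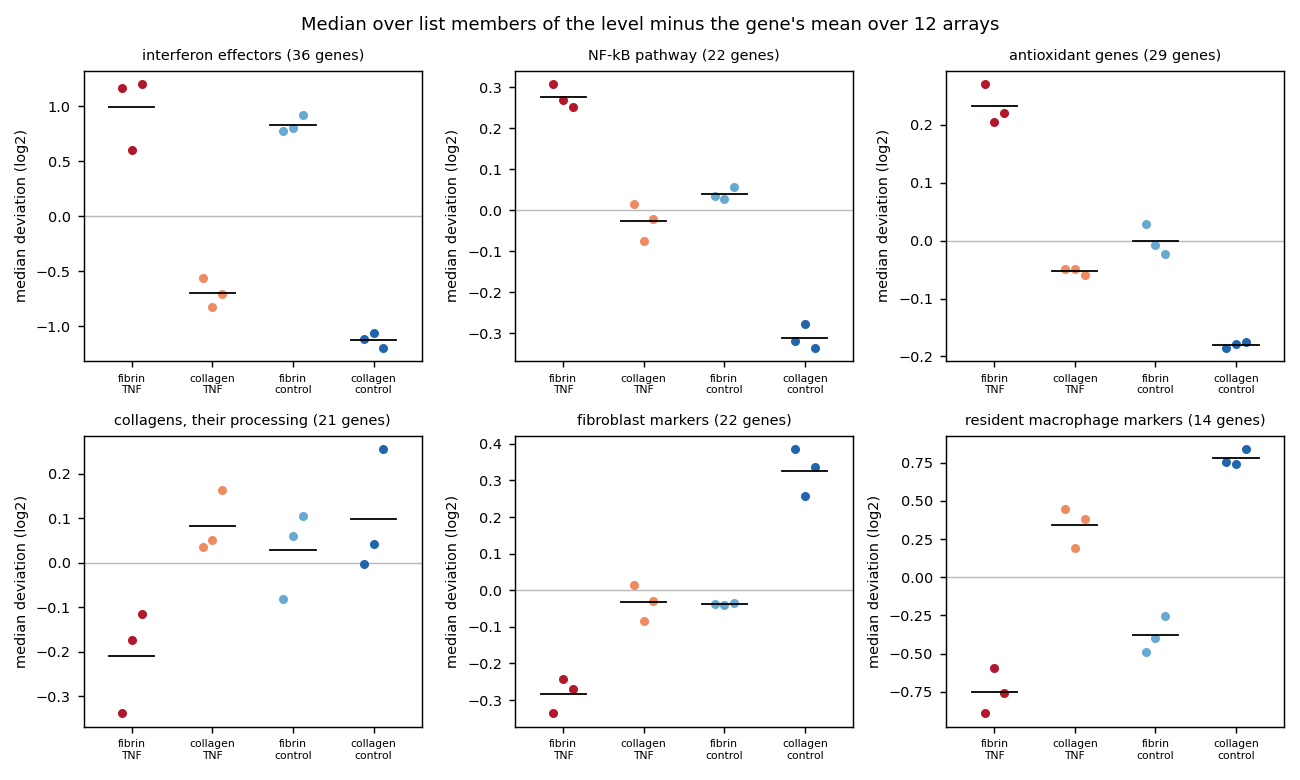
Median over the members of 6 gene lists of the level minus the gene's 12-array mean (log2), for each array of the 4 groups; bars are group means. Interferon effectors separate by matrix, and within collagen the TNF arrays stand above the control arrays. NF-kB and antioxidant genes are highest with both conditions and lowest with neither, and fibroblast and resident macrophage markers are lowest with both.

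Collagens fell or did not pass, and other structural matrix genes fell more often than they rose. Of 21 measured collagens and collagen-processing genes 0 rose and 9 fell (median -0.29). Col3a1, a fibrillar collagen of vessel walls, fell by 0.97 on the log2 scale, Col12a1 by 0.96 and Col5a1 by 0.66, and Col1a1 did not pass (-0.30 ± 0.13, adjusted p = 0.124). Of 24 measured matrix glycoproteins and proteoglycans 4 rose and 11 fell (median -0.37). The small proteoglycans Omd, Fmod and Ogn fell (-1.32, -1.32 and -1.06), and Ltbp2 rose (0.82). Of 11 basement membrane genes 2 rose and 2 fell (median 0.04), with the laminin chain Lamc1 at 0.53.

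Integrins moved in both directions. Of 15 measured 5 rose and 5 fell (median -0.13). Itga2, the alpha chain of a collagen receptor, stood at 9.76, 9.64 and 10.04 on the fibrin TNF arrays, against 8.08, 7.72 and 7.66 on the collagen control arrays (1.99 ± 0.12, adjusted p = 1.29e-07). Itgb8, which activates TGF-beta, rose by 1.65, and Itga4, a receptor of Vcam1, fell (-1.04). Of 9 measured genes of hyaluronan 3 rose and 1 fell (median -0.02), with the synthase Has1 at 0.83 and the receptor Cd44 at 0.77.

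Most endothelial markers did not pass, and angiogenic ligands moved in both directions. Of 28 measured endothelial genes 2 rose, 7 fell and 19 did not pass (median -0.08), beside 10.0% of all genes higher and 9.96% lower. With median centring 3 rose and 5 fell. The tight junction gene Cldn5 fell by 0.98 on the log2 scale and the VEGF co-receptor Nrp1 by 0.72, whereas Clec14a rose (1.05). Of 27 measured angiogenic ligands and receptors 6 rose and 7 fell (median -0.01). Hgf, a motility factor for endothelium, stood at 11.37, 11.24 and 11.14 with fibrin and TNF, against 9.32, 9.34 and 8.98 in collagen controls (2.03 ± 0.17, adjusted p = 1.95e-06).

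Angpt1, the ligand that stabilises vessels through Tie2, stood at 7.77, 8.10 and 8.06 on the fibrin TNF arrays, at 8.45, 8.32 and 8.80 on collagen TNF, at 7.44, 7.37 and 7.55 on fibrin control and at 6.14, 6.20 and 6.33 on collagen control. It rose by 1.75 ± 0.12 (adjusted p = 4.42e-07) relative to collagen control and was lower than in collagen TNF (-0.55, adjusted p = 0.0134), the second call being lost without fibrin TNF replicate 1 or collagen TNF replicate 3 (adjusted p = 0.0631 and 0.0519) and in a fit to the groups compared alone (adjusted p = 0.0527). Angpt2, its antagonist, fell slightly (-0.24 ± 0.07, adjusted p = 0.0388), a call lost without fibrin TNF replicate 2 or 3 or collagen control replicate 1 or 3, with median centring, in a fit to the groups compared alone and over all probe sets (adjusted p = 0.064 to 0.13). Vegfa stood at 8.46, 8.56 and 8.43 with fibrin and TNF, against 8.23, 8.45 and 8.52 in collagen controls, and did not pass (0.09 ± 0.15, adjusted p = 0.754), nor did Fgf2 (0.13 ± 0.07, adjusted p = 0.239). Of 9 measured lymphatic genes 5 rose and 1 fell (median 0.30). Pdpn (0.55) and the ligand Vegfc (0.30) rose, and Lyve1, also counted among the macrophage markers, fell (-1.73). Relative to collagen TNF, 0 lymphatic genes were called higher in fibrin TNF and 3 lower, beside 4.55% and 3.64% of all genes.

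Growth factor systems of the wall moved in both directions. Of 16 measured genes of the insulin-like growth factor system 5 rose and 4 fell (median -0.08). Beside Igf1, the binding proteins Igfbp4 and Igfbp3 fell (-1.75 and -1.02) and Igfbp5 rose (1.61). Of 29 measured genes of TGF-beta and BMP signalling 5 rose and 7 fell (median -0.04). Fst, the activin antagonist follistatin, stood at 9.35, 9.50 and 9.39 with fibrin and TNF, against 6.63, 6.47 and 6.27 in collagen controls (2.95 ± 0.16, adjusted p = 5.12e-08). The ligand Tgfb3 fell by 1.44 on the log2 scale and the co-receptor Tgfbr3 by 1.01. Of 18 measured Notch pathway genes 3 rose and 3 fell (median -0.01), with the target Hes1 at 0.66.

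Lists of general cell functions differed in their called share, beside 20.0% of all genes called and 9.96% called lower. The share was 16.9% for ribosomal, 10.6% for oxidative phosphorylation, 11.8% for cell cycle and 31.2% for cholesterol and fatty acid synthesis genes. Counts of lower genes in these lists moved with the scaling. Of 65 measured ribosomal protein genes 0 rose and 11 fell (median -0.14), and 2 fell with median centring. Of 47 genes of oxidative phosphorylation 2 rose and 3 fell (median 0.02), and of 34 cell cycle genes 1 rose and 3 fell (median -0.13). Of 16 genes of cholesterol and fatty acid synthesis 0 rose and 5 fell (median -0.18). With median centring 1 cell cycle gene and 3 genes of cholesterol and fatty acid synthesis fell. List medians within 0.05 of 0 are not read as a direction: those of the angiogenic, hyaluronan, hypoxia, Notch, eicosanoid, Schwann cell and TGF-beta lists changed sign under median centring.

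The joint group was next set against each single condition. These comparisons share the fibrin TNF arrays with the joint comparison, so their values are given side by side and not as separate evidence. Between fibrin TNF and fibrin control 448 of 14324 genes passed (3.13%), 237 higher and 211 lower. Between fibrin TNF and collagen TNF 1173 passed (8.19%), 652 higher and 521 lower, and with each array centred on its median 880 were higher and 387 lower. The count for adding TNF to fibrin depended on single arrays, and was 255 without fibrin TNF replicate 1, 287 without fibrin TNF replicate 3, 242 without fibrin control replicate 2 and 237 without fibrin control replicate 3. The count for the matrix under TNF was 768 without fibrin TNF replicate 1 and 727 without collagen TNF replicate 3. Cd69, an early activation antigen of leukocytes, stood at 7.60, 7.49 and 7.16 on the fibrin TNF arrays, at 5.43, 5.07 and 5.36 on collagen TNF, at 5.50, 5.11 and 4.77 on fibrin control and at 4.94, 4.46 and 4.16 on collagen control. The fibrin TNF arrays lay above all others, by 2.29 over fibrin control (adjusted p = 0.000104) and by 2.13 over collagen TNF (adjusted p = 3.28e-05).

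Whether the conditions added up on the log2 scale was tested as the joint difference minus the sum of the 2 single differences. A value of 0 means that the fold changes multiplied. Of 14324 genes 177 departed from this (1.24%), 53 above the sum (0.37%) and 124 below it (0.866%). The count was 117 without collagen TNF replicate 1, 103 without collagen TNF replicate 2 and 112 without fibrin control replicate 2. Among the 134 genes called in both tests, 78 rose jointly by less than the sum, 14 rose with the departure above it, 25 fell with the departure above it and 17 fell by more than the sum. The median standard error of the departure was 0.13, against 0.09 for the joint difference, so small departures were less detectable.

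For 7 of the 8 genes furthest below the sum, the joint increase was smaller than the single increases together. Hpx, with group means of 11.10 in fibrin TNF, 10.99 in collagen TNF, 10.98 in fibrin control and 6.07 in collagen control, had a departure of -4.80 ± 0.79 (adjusted p = 0.0107). Slpi had one of -4.07 ± 0.23 (adjusted p = 5.1e-06), Orm1 of -2.96, Scgb1b24 of -2.64, Ccl9 of -2.53, C3 of -2.32 and Pla2g2a of -2.20. TNF in collagen alone gave 4.29 for Slpi, 3.52 for Ccl9, 2.39 for Scgb1b24 and 1.73 for C3. Their joint differences were smaller, at 3.61, 2.79, 2.33 and 1.47. For Hpx, Orm1 and Pla2g2a TNF in collagen alone gave 4.91, 4.21 and 2.98, against joint differences of 5.02, 6.17 and 3.03. Car9 differed from these, since it fell with both conditions and the sum of the single differences was 1.19, which gave a departure of -3.36 ± 0.46 (adjusted p = 0.00358).

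For the genes furthest above the sum, the fibrin TNF arrays mostly went beyond what either condition gave. Sele had a joint difference of 2.63 and a sum of 0.87, a departure of 1.75 ± 0.18 (adjusted p = 0.000482). Gdf15, a stress-induced cytokine, stood at 9.41, 9.04 and 9.44 on the fibrin TNF arrays, at 8.08, 7.79 and 8.23 on collagen TNF, at 8.25, 8.31 and 8.18 on fibrin control and at 8.77, 8.73 and 8.67 on collagen control. Its arrays lay below collagen control with each single condition and above it with both (departure 1.74 ± 0.17, adjusted p = 0.000434). Cd69 had a departure of 1.53, Olr1, the receptor for oxidised lipoprotein, of 1.30 and Il33 of 1.16. On average Cd69 stood lower in collagen control than Orm1 and Nos2, so the size of its departure is uncertain. Fcmr and Dio3 fell jointly by less than the sum, with departures of 1.39 and 1.20, and 6330403K07Rikl departed by 1.26. With replicate numbers as a block within each matrix, the calls for Olr1 and 6330403K07Rikl were lost (adjusted p = 0.0521 and 0.0837). The calls for Cd69, Il33, Olr1, 6330403K07Rikl and, among the genes below the sum, Pla2g2a were also lost without single arrays, at adjusted p between 0.0517 and 0.09.

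The departure did not pass for 4 other genes, chosen after their values were seen. The departure was -0.04 ± 0.33 for Il6 (adjusted p = 0.976), 0.04 ± 0.09 for Nfkbia (adjusted p = 0.916), -0.03 ± 0.10 for Vcam1 (adjusted p = 0.938) and 0.03 ± 0.26 for Sult1a1 (adjusted p = 0.976). For these 4 genes each single condition moved the level in the direction of the joint difference.

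**Figure D5:**
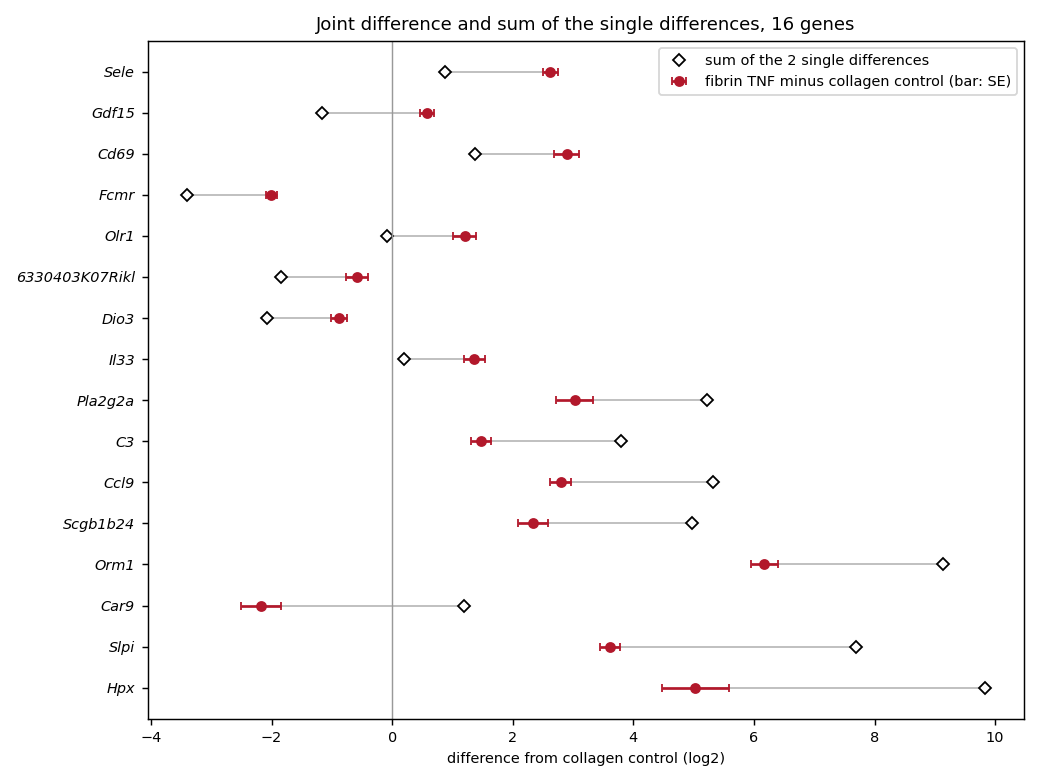
Joint difference between fibrin TNF and collagen control (red points, bars are SE) and the sum of the 2 single differences from collagen control (open diamonds), both log2, for the 8 genes furthest above and the 8 furthest below the sum among those called in both tests. For Sele at the top the joint difference of 2.63 exceeded the sum of 0.87, and for Hpx at the bottom it was 5.02 against a sum of 9.82.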

How the data were processed

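Total RNA (200 ng) of each pooled ring culture was hybridised to a whole-transcript rat array, per the labels' protocols. The deposited values were taken as log2 expression from their range of 1.44 to 14.07. Their normalization method is not stated here by a label or header, and limma is named in the submitters' processing notes. Of 27342 probe sets, 15097 had 1 gene symbol, 323 had several and 11922 had none in the platform annotation. Each of 14324 genes was read from 1 probe set, the brightest by mean over all arrays. No scan date or batch was given.

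One mean per group was fitted to all 12 arrays with limma 3.58.1 in R 4.3.3 (lmFit, eBayes, two-sided contrasts), and p-values were adjusted by Benjamini-Hochberg over all 14324 genes, with a threshold of 0.05. The fit was tested on simulated data. Same-numbered arrays correlated in their deviations from group means at 0.248, 0.144 and 0.159 between fibrin TNF and fibrin control and at 0.133, 0.139 and 0.144 between collagen TNF and collagen control, but at 0.073, -0.075 and 0.096 between fibrin TNF and collagen control. Between fibrin TNF and collagen TNF the values were 0.053, 0.031 and 0.143. The main fit used no pairing. Replicate numbers entered only as a block in alternative fits, within each matrix or over all arrays, and any pairing comes from the data. Arrays of 1 group correlated at 0.9958 to 0.9974.

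The 46 gene lists and the genes named were chosen with earlier results of these data known. Genes were named by rule: the 16 largest and 16 smallest joint differences among calls without overlap, up to 5 called members each way and 3 not called from each list, 37 genes fixed by name of which 33 were analysed, and the 8 furthest each way from additivity. Alternatives were quantile normalization, median centring, leaving out the dim genes with the lowest means, fits to the arrays compared alone, a trended and robust prior, array weights, replicate blocks, the mean of a gene's probe sets, all probe sets, and leaving out each array. Promoters are from RefSeq, GRCr8.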

Additional observations from a re-analysis of the deposited data

Results flagged for a closer look

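A difference between the matrices in the effect of TNF was tested for every gene, and it equals the departure of the joint difference from the sum of the single ones. Of the genes named in the report, 45 passed limma at an adjusted p of 0.05, and their values are the effect of TNF in fibrin minus its effect in collagen on the log2 scale. Acute-phase, complement and secretory genes gave -4.80 for Hpx, -4.07 for Slpi, -2.96 for Orm1, -2.64 for Scgb1b24, -2.32 for C3, -1.58 for Lcn2, -1.14 for Ptx3 and -0.91 for Hamp. Chemokines and cytokine-related genes gave -2.53 for Ccl9, -1.96 for Ccl7, -1.86 for Ccl19, -1.26 for Ccl2, -0.93 for Il2rg and -0.85 for Il18bp. Enzymes of nitric oxide, eicosanoid, steroid and ester metabolism gave -2.20 for Pla2g2a, -2.13 for Nos2, -1.69 for Cyp7b1, -1.46 for Ces1f, -1.44 for Akr1c14, -1.35 for Ptges and -1.07 for Cyp1b1.

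Proteases, inhibitors, growth factor genes and matrix genes gave -1.94 for Mmp3, -1.78 for Angpt1, -1.71 for Mmp9, -1.62 for Fst, -1.20 for Fbln1, -0.92 for Igfbp3, -0.91 for Timp1, -0.86 for Adamts4 and -0.78 for Itgb8. The remaining negative differences were -3.36 for Car9, -0.62 for Sod2, -0.60 for Mt1 and -0.50 for Slc39a14. For Car9 the effect of TNF was -2.62 in fibrin and 0.75 in collagen, and for Hpx it was 0.11 in fibrin and 4.91 in collagen.

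The positive differences were 1.75 for Sele, 1.74 for Gdf15, 1.53 for Cd69, 1.39 for Fcmr, 1.30 for Olr1, 1.26 for 6330403K07Rikl, 1.20 for Dio3, 1.16 for Il33, 0.86 for Akr1c15, 0.81 for Ccdc80 and 0.57 for Mfap5. For Sele the effect of TNF was 1.79 in fibrin and 0.04 in collagen, and for Gdf15 it was 1.05 in fibrin and -0.69 in collagen. For Fcmr, Dio3, Akr1c15, Ccdc80 and Mfap5 the positive sign marks a smaller decrease with TNF in fibrin than in collagen, or no called decrease. Dixon's test for a single outlying value was not applied to groups of 3 arrays.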

How the results depend on the processing

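The joint comparison stayed within 1.5 times its count of 2864 genes under all alternatives run, from 2165 (only the groups compared) to 3419 (all probe sets, named or not), and from 2167 to 2533 without single arrays. Of the 183 genes named as called, 3 lost the call under at least 1 alternative (Ifitm1, Angpt2 and 6330403K07Rikl) and none changed sign. Of the 16 named as not passing, Cd68, Cx3cl1 and Col1a1 passed under at least 1 alternative. Without single arrays the joint difference of Nos3 ranged from -0.1675 to 0.01689 and that of S100a8 from -0.2625 to 0.06181, and neither passed.

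The other counts depended more on the processing. For fibrin TNF against fibrin control, only the groups compared gave 230 genes, 128 higher and 102 lower, a trended and robust prior gave 341 lower, and leaving out single arrays gave 237 to 539 called, 134 to 252 higher and 103 to 287 lower. For fibrin TNF against collagen TNF, leaving out single arrays gave 727 to 1196 called, 428 to 612 higher and 299 to 584 lower. For the departure from the sum, leaving out the dimmest genes gave 294 called and 108 above, and a trended and robust prior gave 339 called, 127 above and 212 below. Leaving out single arrays gave 103 to 246 called, 22 to 77 above and 81 to 169 below. Some alternatives hold fewer genes or arrays, and the cause of the differences between counts was not tested.

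With the replicate number as a block over all 12 arrays, the joint comparison gave 3224 genes, fibrin TNF against fibrin control 324 lower genes, and the departure 276 genes, 89 above and 187 below. With a replicate block built inside each matrix, where same-numbered samples deviated together, fibrin TNF against fibrin control gave 556 genes and the departure 208. This block could not be used between matrices. It ended the departure calls of Igfbp3 and Slc39a14 beside those given in the report, and among the calls between fibrin TNF and fibrin control that the report states it changed none. Departure calls of 16 of the 45 named genes were lost under at least 1 alternative, among them Adamts4, Ccl2, Fbln1, Hamp, Il18bp, Itgb8, Lcn2, Mfap5 and Sod2.

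The design has 3 arrays a group, so small differences were not detectable. Some above the standard error of the gene did not pass either, as for Cd68, Col1a1 and Tnf in the main joint comparison. Low values near the background of the array carry no order. Probe brightness limits depth here, and background intensities were not used here.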
